A study of Homo sapiens with 5 samples.

Results

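The origins described here are the 821 of 23905 human replication origins (3.43%) whose efficiency in the 3-hour ini-seq 2 reaction was 0.97 or more, called the top origins below. Efficiency is the share HL/(HL + LL) of the normalised reads over an origin that came from replicated DNA, which is heavy on 1 strand (HL), rather than from DNA left light on both strands (LL). The map was made with nuclei of EJ30, an established bladder carcinoma line, arrested in late G1 phase with mimosine and incubated for 3 hours with Br-dUTP and cytosolic extract of proliferating HeLa cells. The same kind of nuclei gave a list after 15 minutes of reaction, and EJ30 cells gave SNS-seq peaks, which mark short nascent DNA strands, from strands of 0.5 to 2 kb and of 2 to 4 kb. All groups thus share 1 cell line, and ini-seq 2 reads initiation in a cell-free reaction rather than in growing cells. The lists hold 23905 origins at 3 hours, 10181 at 15 minutes, and 147657 and 184966 SNS-seq peaks. Each condition is a single deposited list, so there is no spread between replicates and no test was made: values of the top origins are given beside those of the 1918 origins with an efficiency of 0.95 to below 0.97 (the next step below) and of all 3-hour origins, and the 95% intervals of shares (exact Clopper-Pearson) cover counting error only. The lists give no read counts, and the depth behind a given origin is unknown.

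Human cells load the MCM helicase onto many sites of the genome in G1 phase, and only some of these sites start replication in the following S phase. Human origins have no common sequence motif, but many lie in CpG islands, stretches rich in G, C and the CpG dinucleotide that surround the starts of most housekeeping and many developmental genes. Runs of guanines at such sites can fold into G-quadruplexes (G4), 4-stranded structures whose motifs are frequent near origins.

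The top origins covered 0.751 Mb in all, and most of them looked like the first set of sequences below, whose capitals mark CpG dinucleotides, while a few others were built quite differently. Each stretch is 120 bases from hg38 near the centre of a top origin, read 5′ to 3′ on the plus strand. KLHL15 encodes a substrate adaptor of a ubiquitin ligase, TPST2 a protein-tyrosine sulfotransferase of the Golgi and AGAP1 a GTPase-activating protein of membrane traffic. The first comes from the longest origin with an efficiency of 1 (an intron of KLHL15), the second from an origin with one of the highest 15-minute Z-scores (an intron of TPST2) and the third from an origin 112187 bp from the nearest gene start (an exon inside AGAP1). The fourth, shown for contrast, is from the top origin with the lowest GC content, in an intron of CSRNP3, and holds 1 CpG against 16 to 19 in the other three.
KLHL15, chrX:24025340-24025459, plus strand: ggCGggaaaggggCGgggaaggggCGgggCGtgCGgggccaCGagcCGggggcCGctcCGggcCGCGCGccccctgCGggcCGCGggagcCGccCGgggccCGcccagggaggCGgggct
TPST2, chr22:26589840-26589959, plus strand: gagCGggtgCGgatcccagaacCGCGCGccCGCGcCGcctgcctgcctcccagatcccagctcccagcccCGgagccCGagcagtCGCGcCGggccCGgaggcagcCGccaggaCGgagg
AGAP1, chr2:235670290-235670409, plus strand: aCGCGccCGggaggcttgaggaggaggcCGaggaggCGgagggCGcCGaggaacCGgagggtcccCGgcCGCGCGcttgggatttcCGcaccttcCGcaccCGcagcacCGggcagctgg
CSRNP3, chr2:165666740-165666859, plus strand: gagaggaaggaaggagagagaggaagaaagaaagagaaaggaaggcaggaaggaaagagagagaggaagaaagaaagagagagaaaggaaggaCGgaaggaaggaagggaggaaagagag

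Of the top origins with most G4 motifs per kb, 2 are shown in the same way, with the motifs in capitals (4 tracts, each with 3 or more guanines, set apart by 1 to 7 nt; the first matches that do not overlap). The origin in an intron of ARHGAP19 holds purine repeats on the plus strand, and its longest run of only purines or only pyrimidines was 118 of 400 bases. The other origin contains the start of ITIH5, a gene for an inhibitor heavy chain that binds hyaluronan. The bases printed from it lie just upstream of that start, are on the strand of ITIH5, and hold both G4 motifs and 12 CpG.
ARHGAP19, chr10:97251440-97251559, plus strand: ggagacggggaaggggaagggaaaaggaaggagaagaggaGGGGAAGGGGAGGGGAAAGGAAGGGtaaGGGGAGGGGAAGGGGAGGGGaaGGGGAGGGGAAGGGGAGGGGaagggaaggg
ITIH5, chr10:7667190-7667309, minus strand: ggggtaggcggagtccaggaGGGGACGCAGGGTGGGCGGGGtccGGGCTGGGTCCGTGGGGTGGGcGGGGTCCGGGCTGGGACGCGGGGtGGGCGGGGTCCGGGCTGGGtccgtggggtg

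The top origins were chosen by their 3-hour efficiency, which is described here without a test, as are their 3-hour lengths, which come from the same reads. The median efficiency was 0.978 (quartiles 0.973 and 0.984), and 507 origins lay from 0.97 to below 0.98, 209 from 0.98 to below 0.99, 61 from 0.99 to below 1, and 44 at 1, where no light read was counted. At the limit, 7 origins had 0.97 exactly, which is 32.3 heavy reads for each light one after normalisation, and 6 had 0.9699. Origins inside the limit included 1 over the start of APBB1 on chromosome 11 and 1 over the start of CDCA4 on chromosome 14, and origins outside it included 1 over the start of ODC1 on chromosome 2, which encodes ornithine decarboxylase. The values near the limit formed no gap, with 90 origins from 0.97 to below 0.971 and 70 from 0.969 to below 0.97.

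The top origins had a median length of 800 bp (quartiles 600 and 1200 bp, range 300 to 3100 bp), against 1000 bp in the next step and 700 bp over all origins. Within them, length was lower and GC content higher towards an efficiency of 1 (Spearman's rho over 821 origins −0.35 for length and 0.42 for GC content). The median length was 900 bp from 0.97 to below 0.98, 700 bp from 0.98 to below 0.99, 600 bp from 0.99 to below 1, and 400 bp at 1, and 31 of the 44 origins at 1 were 300 or 400 bp long. Over all 3-hour origins the relation of length to efficiency ran the other way (rho 0.23 over 23905). A short interval holds fewer reads, and the part of read number in values near 1 was not tested. Of the 5 longest origins with an efficiency of 1, that in KLHL15 spanned 1000 bp, that over the start of ZAR1, an oocyte factor for early development, 900 bp, and those over the starts of USP6NL and GRID1 600 bp each. The last, also of 600 bp, lay in KBTBD11 on chromosome 8.

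The longest top origin, 3100 bp on chromosome 15 with an efficiency of 0.991, contained the start of KLF13, a zinc finger transcription factor. The others of the 5 longest lay in 3 chromatin genes and over the starts of a pair of neighbouring genes. They were 2900 bp in NSD1, a histone H3 lysine methyltransferase (efficiency 0.972), 2800 bp in ARID1B (0.973), 2700 bp in ARID1A (0.974), both subunits of the SWI/SNF chromatin remodelling complex, and 2600 bp over the starts of PHF13 and KLHL21 (0.982). Those in the chromatin genes did not contain the single start annotated for the gene as a whole, which was 71 bp from the NSD1 origin. Whether they contain the start of another transcript is not given here. All 5 were called at 15 minutes, with intervals of 3000, 2500, 2700, 2400 and 2200 bp and Z-scores of 1.57, 0.11, 0.78, 0.74 and 1.63.

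The reaction of 15 minutes was not used in choosing the top origins and shows which of them were already called at that time. A call requires that the limits of the caller are met, so an origin without a call cannot be taken as not started. Of the 821, 774 (94.3%, 95% interval 92.5 to 95.8%) overlapped a 15-minute origin by at least 1 bp, where 40.1% of all 3-hour origins did. The share was 93.8% (92.6 to 94.8%) in the next step, 89.5% from 0.94 to below 0.95, 63.6% from 0.90 to below 0.92 and 2.77% from 0.80 to below 0.82. The share at the top thus lay within the interval of the next step. The strength of the 15-minute call, a Z-score within that list, still differed between these steps: the median was 0.82 (quartiles 0.28 and 1.33) over the top origins, 0.52 (−0.07 and 1.04) in the next step, 0.24 from 0.94 to below 0.95 and −1.01 from 0.80 to below 0.82. Among the called, 638 of 774 top origins (82.4%) and 1299 of 1799 of the next step (72.2%) had a Z-score above 0. Within the top origins rho of the Z-score was 0.08 with the 3-hour efficiency and 0.39 with GC content (774 origins). Over all 9597 called 3-hour origins it was 0.38 with efficiency and 0.48 with GC content. The top origins were cut to a narrow range of efficiency, which limits the first value, so the values within them do not rank efficiency against GC content. All are values of single lists across origins. From the side of the 15-minute list, 20 of its 100 highest Z-scores (20%, 12.7 to 29.2%) and 14 of its 1000 lowest (1.4%, 0.77 to 2.34%) belonged to origins that overlap a top origin, against 771 of all 10181 (7.57%).

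**Figure D1:**
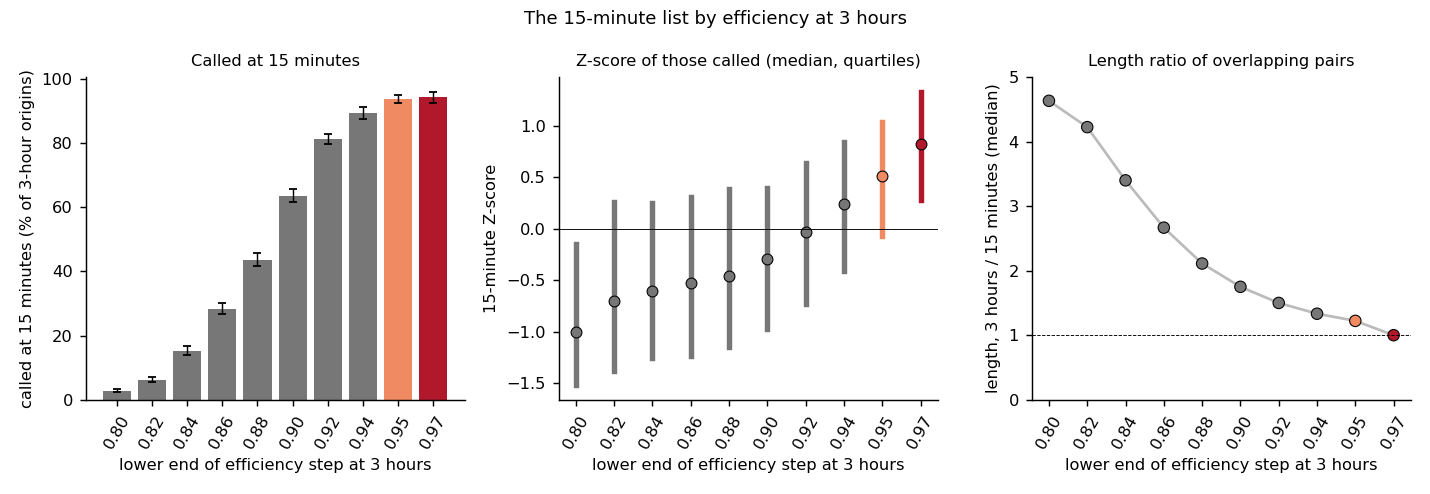
The 15-minute list against efficiency at 3 hours in 10 steps, each labelled by its lower end: the share of 3-hour origins called at 15 minutes with exact 95% intervals (left), the Z-score of the called origins as median and quartiles (middle) and the median ratio of the lengths at 3 hours and 15 minutes (right). The share levels off at 93.8 and 94.3% in the last 2 steps, shown in orange and red, while the median Z-score is 0.52 and 0.82 and the median length ratio 1.22 and 1.

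The highest 15-minute Z-scores among the top origins belonged to CpG-rich sites of little-related genes. An origin of 400 bp over the start of VKORC1L1, which encodes a vitamin K epoxide reductase, had a Z-score of 2.56, rank 6 of the whole list, and a GC content of 81.3%. It was followed by an origin of 400 bp in FRMPD3 on chromosome X (2.44, efficiency 1), 1 of 900 bp over the start of LRRFIP1, a transcriptional repressor (2.37), 1 of 400 bp over the start of LEPROTL1 on chromosome 8 (2.36) and that of 1000 bp in TPST2 (2.35). All but the TPST2 origin were 78% GC or more, and TPST2 had 73.2%.

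In the median pair, the 3-hour interval of a top origin was as long as the 15-minute one. Over the 774 pairs the 15-minute intervals had a median length of 900 bp, and the median ratio of 3 hours to 15 minutes was 1, whereas the ratio was 1.22 in the next step, 1.5 over all 9597 pairs and 4.63 from 0.80 to below 0.82. The 3-hour interval was longer in 385 pairs (49.7%), equal in 142 (18.3%) and shorter in 247 (31.9%, 28.6 to 35.3%), and 78 pairs had the same start and end. In the next step it was shorter in 11.8% (10.3 to 13.4%) and over all pairs in 8.54%. In 33 of the 774 pairs the 15-minute origin also overlapped another 3-hour origin. Where each origin overlapped only the other, 214 of 740 (28.9%) were shorter at 3 hours. Ratios were smallest near an efficiency of 1, with medians of 1.13 from 0.97 to below 0.98, 1 from 0.98 to below 0.99, 0.9 from 0.99 to below 1, and 0.75 at 1. Since 3-hour length and 3-hour efficiency come from the same reads, this pattern is described and not tested. The centres lay close together, with a median offset of 50 bp, the same as in the next step, against 100 bp over all pairs.

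**Figure D2:**
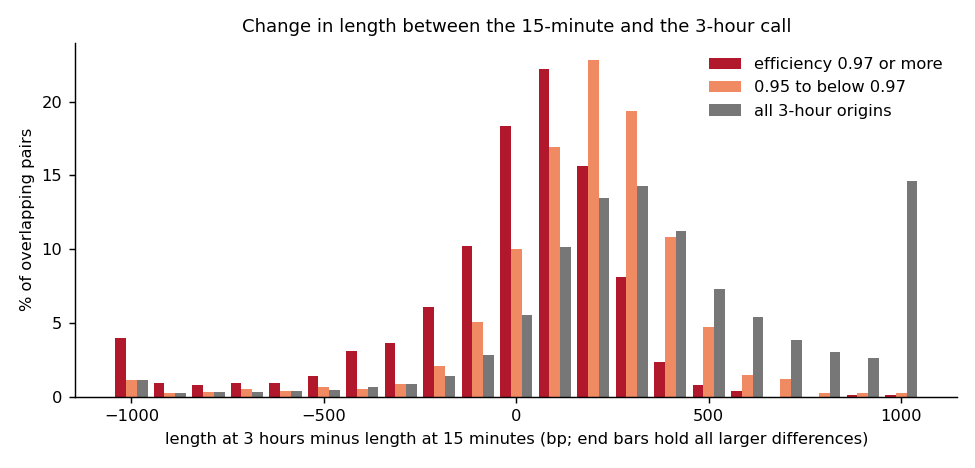
Length of the 3-hour call minus length of the overlapping 15-minute call, in steps of 100 bp, as a share of pairs for the 774 top origins (red), the 1799 origins of the next step (orange) and all 9597 pairs (grey). The red bars centre on a median difference of 0 bp, the orange on 200 bp and the grey on 300 bp.

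The 47 top origins with no 15-minute call were mostly the shortest. Their median length was 300 bp against 900 bp in the 774, and 38 of the 47 were 300 or 400 bp long. Among top origins of 300 to 400 bp 112 of 150 (74.7%, 66.9 to 81.4%) were called at 15 minutes, against 86 of 161 (53.4%, 45.4 to 61.3%) of this length in the next step and 7.12% of this length over all origins. All 188 top origins of 1300 bp or more were called, as were 262 of the 264 from 800 to 1200 bp. In the next step all 581 and 791 of 799 of these lengths were called, and over all origins 68.1 and 58.9%. Median GC content was 74.3% in the uncalled and 75% in the called origins. A coding gene start lay in 11 of the 47 (23.4%, 12.3 to 38.0%) and in 413 of the 774 (53.4%, 49.8 to 56.9%), and 44 of the 47 overlapped SNS-seq peaks of both fractions. The longest without a call was an origin of 1000 bp over the start of CNNM1, a gene of a family of magnesium transport proteins, whose nearest 15-minute origin was 289801 bp away. The next were an origin of 800 bp in LRFN1, 700 bp in BCL11B, a zinc finger factor of T cell development, and in LHX1, a homeobox gene, and 600 bp over the start of ZNF507. That in BCL11B was 601 bp from a 15-minute origin.

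SNS-seq, an assay independent of the ini-seq 2 reactions, found nearly all top origins. A peak of either fraction lay within 5 kb of 818 of 821 (99.6%, 98.9 to 99.9%), where the share over all 3-hour origins was 97.6%. Peaks of both fractions overlapped 814 (99.1%, 98.3 to 99.7%), against 77.7% of all origins, 99.3% (98.8 to 99.6%) of the next step and 56.5% from 0.80 to below 0.82. The overlapped peaks had a median length of 1670 bp in the 0.5 to 2 kb fraction and 2703 bp in the 2 to 4 kb fraction, against 1705 and 2628 bp in the next step and 1245 and 2283 bp over all origins. Peak and origin were nearly concentric, with median distances between centres of 144 and 234 bp. These distances were 129 and 236.5 bp in the next step and 236 and 281.5 bp over all origins. The peak was longer than the top origin in 93.9 and 99.4% of overlaps. It was longer in 89.0 and 98.7% in the next step and in 64.1 and 89.9% over all origins.

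The 3 top origins with no peak within 5 kb were among the 11 of the 821 with a GC content below 70%. The origin of 400 bp in CSRNP3 shown above, with a GC content of 44.5%, a purine stretch of 90 bases and an efficiency of 0.978, was 14235 bp from the nearest peak, was not called at 15 minutes and lay 127659 bp from the nearest gene start. An origin of 400 bp between genes on chromosome 9 (efficiency 0.984, GC content 69.0%) was 624063 bp from a peak, although the 15-minute list held exactly the same interval. An origin of 300 bp on chromosome 22 (0.975, GC content 68%) had few CpG for its composition, with an observed/expected ratio of 0.22, and its nearest peak was 23587 bp away. How uniquely reads align at these sites was not tested.

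In base composition the top origins stood at the end of the range of the list. Their median GC content was 75% (quartiles 73.5 and 76.7%), against 72.8% (71.4 and 74.3%) in the next step and 67.0% (64.3 and 70.2%) over all origins, and 810 of 821 had at least 70%. Among all 3-hour origins the share that were top origins grew with GC content, from 1 of 3980 between 60 and 64% to 249 of 976 (25.5%) between 74 and 76% and 104 of 150 (69.3%, 61.3 to 76.6%) at 78% or more. Their median observed/expected CpG ratio was 0.88, against 0.85 and 0.64. A CpG island criterion, GC content above 50% and observed/expected CpG above 0.6, was met by 812 (98.9%), as in the next step (98.8%), and by 53.7% of all origins. The CSRNP3 site was among the 9 that failed it.

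Mean GC content reached 76.8% at the centre of the top origins and 45.7% at 9 to 10 kb from it, against 68.5 and 49.3% around all origins, and the peak was 1100 bp wide midway between its height and the flanks, against 1000 bp in the next step and over all origins. GC skew, (G − C)/(G + C), averaged over 10 kb on the right of the centre minus 10 kb on the left, was 0.0329 around top origins, 0.0324 in the next step and 0.0116 over all origins, and the same difference in AT skew was −0.0602, −0.0573 and −0.0267. Over the 344 top origins with no gene start inside, the difference in GC skew was 0.0199.

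**Figure D3:**
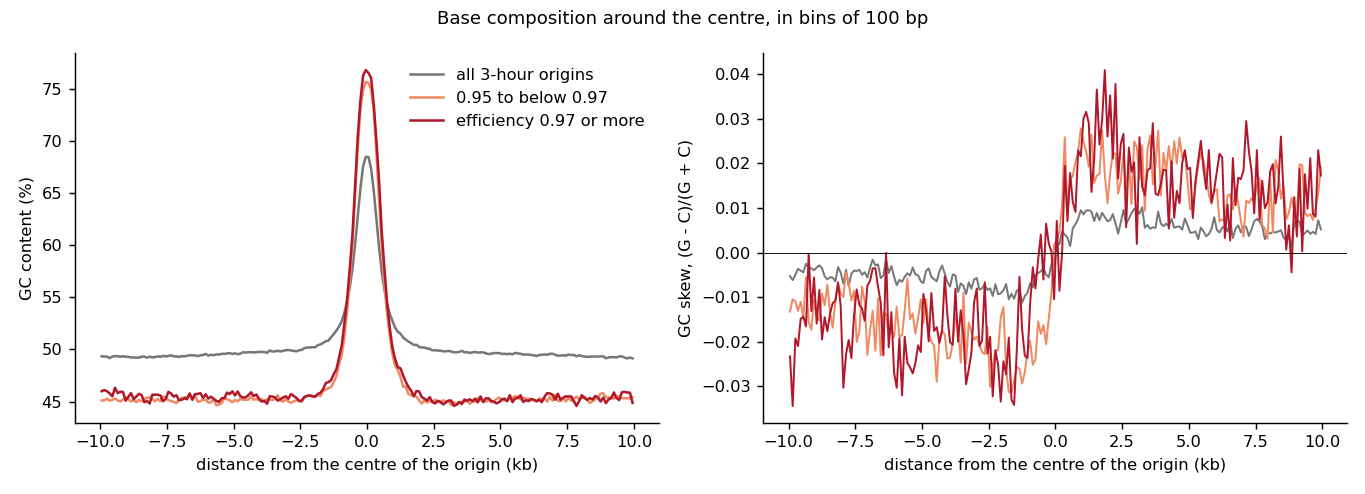
GC content (left) and GC skew (right) in bins of 100 bp from 10 kb on either side of the centre, for the 821 top origins (red), the 1918 origins of the next step (orange) and all 23905 origins (grey). GC content peaks at 76.8% in red against 68.5% in grey and lies below the grey line in the flanks, at 45.7 against 49.3%. GC skew is mostly below 0 in the left flank and above 0 in the right flank, and the red line varies around 0 near the centre.

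At least 1 G4 motif was found in 691 top origins (84.2%, 81.5 to 86.6%), in 87.5% (86.0 to 89.0%) of the next step and in 71.0% of all origins. Per kb the medians were 2.5, 2.5 and 1.76. Within the top origins the share was 84.8% from 0.97 to below 0.98, 82.8% from 0.98 to below 0.99, 88.5% (54 of 61) from 0.99 to below 1 and 77.3% (34 of 44) at 1, and 130 had no motif. In a fixed window of 300 bp at the centre the shares were 57.5% (54.0 to 60.9%), 56.5% and 44.8%, against 25% of 35116 promoters of RefSeq (GRCh38.p14, 250 bases before to 50 after the start). The ARHGAP19 origin held 9 motifs and the ITIH5 origin 15.

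Other motifs were searched in the same 300 bp, on both strands. The GC box GGGCGG, the site of Sp1, was present in 721 top origins (87.8%, 85.4 to 89.98%), 86.8% of the next step, 58.6% of all origins and 45.0% of promoters. The CCAAT box, searched as CCAAT, was present in 89 (10.8%, 8.80 to 13.2%), 11.3% of the next step, 15.7% of all origins and 34.6% of promoters. The ETS motif CCGGAAG was found in 57 (6.94%), against 7.28% of all origins and 10.3% of promoters, and the E-box CACGTG in 49 (5.97%), against 6.35 and 7.26%. The cyclic AMP response element TGACGTCA was in 4 top origins (0.49%) and the E2F motif TTTCCCGC in 16 (1.95%, 1.12 to 3.15%), against 0.66 and 1.44% of all origins. The NRF1 motif GCGCATGCG was in 7 (0.85%), against 0.80% of all origins and 1.92% of promoters. The YY1 motif AAGATGGCG was in 11 (1.34%), against 1.06 and 1.75%, and the BANP motif TCTCGCGAG in 4 (0.49%), against 0.23 and 0.69%. A match is a run of letters and not a bound site. The windows of origins and promoters also lie at different places. Where an origin held a single coding start, its centre lay mostly downstream, whereas promoter windows lie mostly before the start. GC content of the promoters is not given. The shares against promoters, including that of G4 motifs, thus do not show gain or loss of promoter motifs. Over their whole intervals, 253 top origins held the CCAAT box, 158 the ETS motif and 802 the GC box.

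The top origins lay mostly at genes. Of the 821, 424 (51.6%, 48.2 to 55.1%) contained the start of a protein-coding gene, against 59.9% (57.6 to 62.1%) of the next step, 56.7% from 0.94 to below 0.95 and 31.8% of all origins. A further 249 (30.3%, 27.2 to 33.6%) overlapped a coding gene's exon without its start, against 24.4% in the next step and 29.9% of all origins. The start of any transcript of a coding gene, which includes alternative promoters, lay in 626 (76.2%), against 83.1% and 48.9%. Only a long non-coding RNA start lay in 50 (6.09%), against 5.74% in the next step and 4.22% of all origins. A further 31 (3.78%) were in introns of coding genes and 45 (5.48%) between genes, against 14.1 and 14.6% of all origins. The share with a coding gene start was 56.2% from 0.97 to below 0.98, 32.8% from 0.99 to below 1 and 25% at 1, where the intervals were shortest, and it was 58.3% over top origins of 500 bp or more.

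Where an origin held a single coding gene start, its centre lay downstream in most cases: in 315 of 391 top origins (80.6%, 76.3 to 84.4%), with a median of 176 bp into the gene (quartiles 55 and 307 bp). Over all origins the share was 80.7% and the median 170 bp. At least 1 start of a divergent pair of coding genes, with starts within 1 kb of each other, lay in 24 top origins (2.92%, 1.88 to 4.32%), against 2.33% of all origins. By position, the called share at 15 minutes was 413 of 424 at coding starts (97.4%), 234 of 249 in exons (94.0%), 24 of 31 in introns and 36 of 45 between genes. Their median Z-scores were 0.90, 0.73, 1.14 and 0.43. Median lengths in these 4 positions were 1000, 700, 400 and 500 bp, and longer top origins were called more often. Position and length were thus not told apart, and the called shares by position over all origins are not given here.

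**Figure D4:**
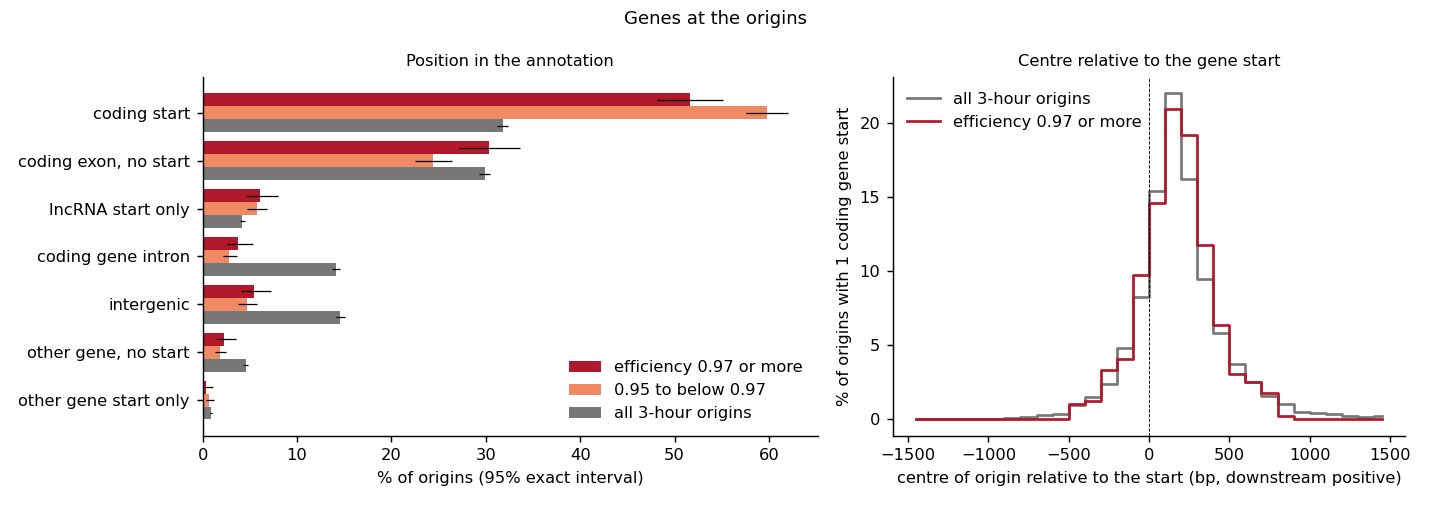
Position of the top origins (red), the next step (orange) and all 3-hour origins (grey) in the GENCODE annotation with exact 95% intervals (left), and the centre of origins that hold a single coding gene start relative to that start, in steps of 100 bp with downstream positive (right). Coding gene starts are in 51.6, 59.9 and 31.8% of the 3 sets, and the centres of the top origins are shifted downstream by a median of 176 bp.

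Some top origins lay far from any annotated gene start. Distance was taken to the single start annotated for each gene as a whole, so starts of other transcripts inside a long gene were not counted. The farthest, of 300 bp in DAB2IP with an efficiency of 1, was 160087 bp from a start and not called at 15 minutes. An origin of 500 bp on chromosome 16 (efficiency 0.991) followed at 139377 bp, and then the CSRNP3 site. An origin of 500 bp in TUSC3 on chromosome 8 (efficiency 1) was 122986 bp away. The AGAP1 origin at 112187 bp was the longest of these, with 1700 bp. It had a GC content of 78.3% and a 15-minute interval of 2000 bp with a Z-score of 1.45.

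Starts of 458 of 20007 protein-coding genes (2.29%, 2.09 to 2.51%) lay in a top origin. The gene lists below were read against this share, which lay inside the exact interval of every list but that of the olfactory receptor genes. Of 58 DNA replication genes 2 had a top origin at the start, GINS1, a subunit of the GINS complex of the replicative helicase (efficiency 0.981, 15-minute Z-score 0.67), and POLE, the catalytic subunit of DNA polymerase epsilon, which copies the leading strand (0.988, 1.46). Of 35 cell cycle genes 1 had it, CCNE1, which encodes cyclin E1, the partner of CDK2 at the start of S phase, in an origin of 1500 bp with a GC content of 79.1% and 10 G4 motifs (0.975, 1.89). Of 36 genes altered in bladder carcinoma it was SPTAN1, a spectrin chain (0.972). Of 14 genes at origins long studied with other methods 9 had a 3-hour origin at the start and 2 a top origin, among them HPRT1, which encodes a purine salvage enzyme (0.9709).

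Among gene families, 7 of 515 zinc finger genes (1.36%, 0.55 to 2.78%) had a top origin at the start, of which ZNF449 and ZNF507 were not called at 15 minutes. The families with 1 or 2 were the HOX genes with HOXD13 (39 genes), the mitochondrial ribosomal proteins with MRPS6 and MRPS34 (78) and the proteasome with PSMA7 (32). None of 88 cytosolic ribosomal protein genes had one, although 35 had a 3-hour origin at the start, which allows a share of up to 4.11% (upper end of the exact interval). None was found at 73 SOX, PAX and FOX genes, of which 33 had a 3-hour origin, at 20 tRNA synthetase genes, at 30 genes of the core spliceosome, at 69 clustered histone genes, at 55 keratin genes, at 53 clustered protocadherin genes or at 416 olfactory receptor genes. The olfactory receptor genes had no 3-hour origin at a start at all.

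The top origins were spread unevenly over the chromosomes. They made up 55 of 293 origins on chromosome X (18.8%, 14.5 to 23.7%), 69 of 749 on chromosome 8 (9.21%, 7.24 to 11.5%), 75 of 945 on chromosome 10 (7.94%, 6.29 to 9.85%), 25 of 367 on chromosome 18 (6.81%) and 71 of 1079 on chromosome 16 (6.58%), but 27 of 2385 on chromosome 19 (1.13%, 0.75 to 1.64%) and 12 of 1399 on chromosome 11 (0.86%, 0.44 to 1.49%). Among origins with a GC content of at least 72% the share was 44.4% on chromosome X, 39.1% on chromosome 10 and 38.3% on chromosome 8, and 13.3% on chromosome 19, 13.2% on chromosome 20 and 6.34% on chromosome 11. Median GC content of the top origins was 74 to 77.7% on every chromosome that had any. The 55 on chromosome X had a median efficiency of 0.986 against 0.977 on the autosomes, a median length of 600 against 800 bp, and 9 of them had an efficiency of 1. Of the 55, 53 (96.4%, 87.5 to 99.6%) were called at 15 minutes, against 184 of all 293 origins on chromosome X (62.8%). Their median Z-score was 0.73, against 0.83 for top origins on the autosomes.

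Part of this unevenness lay in whole regions, and 7 windows of 20 Mb held 109 of the top origins. In windows of 20 Mb with at least 20 origins, of which there were 153, the median share of top origins was 3.24%, but in 7 windows it was over 30%. These were the first 20 Mb of chromosome 10 (24 of 38 origins, 63.2%, 46.0 to 78.2%), of chromosome 9 (12 of 26, 46.2%) and of chromosome 8 (17 of 37, 45.9%), the windows from 20 to 40 Mb of chromosomes 10 (13 of 34) and 8 (26 of 68), and on chromosome X those from 20 to 40 Mb (7 of 21) and from 120 to 140 Mb (10 of 33). The 7 windows were picked for this share, so what follows describes them. Few origins were called there at 3 hours, 39.3 per 100 coding gene starts against 123 in the other windows, while 15-minute origins numbered 41.4 and 51.7. As a result the 3-hour list held 257 origins and the 15-minute list 271, whereas elsewhere the 3-hour list held 2.39 times as many. In 5 of the 7 windows and 1 of the 146 others the 3-hour list was the shorter. SNS-seq peaks of the 0.5 to 2 kb fraction numbered 286 per 100 coding starts in the 7 windows and 759 in the others. Within a step of GC content the shares also lay apart: of origins with 74 to 76% GC, 28 of 43 (65.1%, 49.1 to 79.0%) in these windows and 221 of 933 (23.7%, 21.0 to 26.6%) elsewhere were top origins. Copy number and replication timing of these regions in EJ30 were not measured here, and their part in the pattern was not tested.

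**Figure D5:**
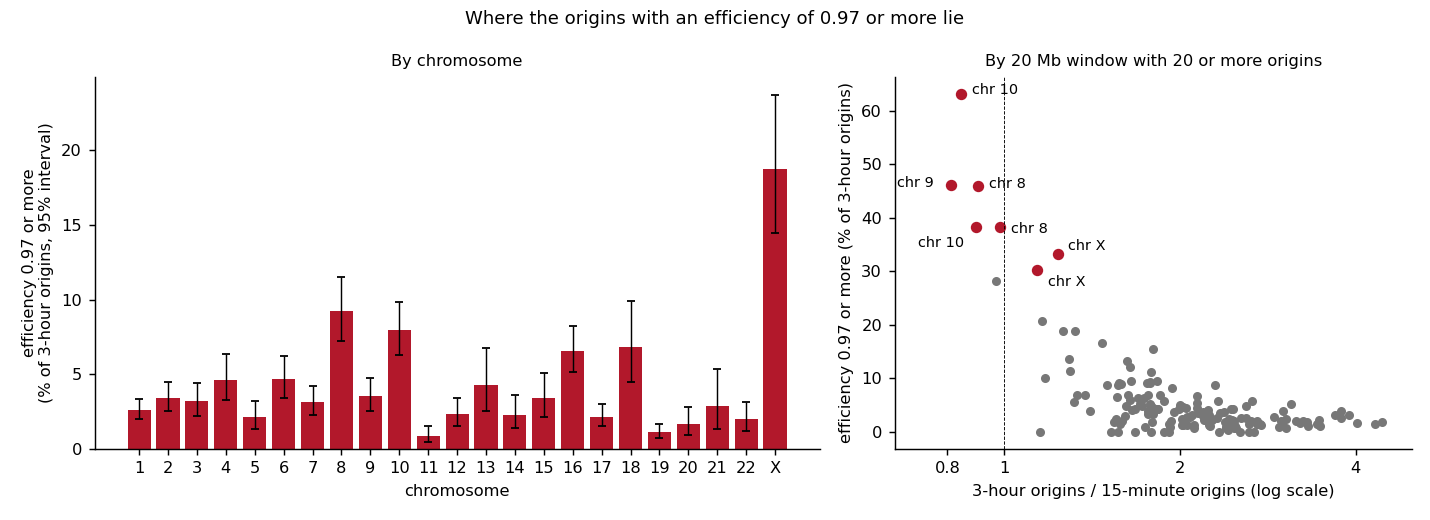
Top origins as a share of 3-hour origins by chromosome with exact 95% intervals (left), and the same share for each of 153 windows of 20 Mb against the ratio of 3-hour to 15-minute origins in the window on a log scale (right), with the 7 windows over 30% in red. Chromosome X stands highest at 18.8%, and 5 of the 7 red windows lie left of the dashed line, where the 15-minute list holds more origins than the 3-hour list.

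The start sites in the first 20 Mb of chromosome 10 are those of genes of many kinds. They include ZMYND11, a reader of histone H3 (in the gene, 15-minute Z-score 2.28), LARP4B, an RNA-binding protein (2.08), KLF6, a zinc finger transcription factor (−0.17), PFKFB3, a regulator of glycolysis (0.30), TAF3, a subunit of the general transcription factor TFIID (−0.79), SUV39H2, a histone H3 lysine methyltransferase (0.26), and USP6NL, whose efficiency was 1 (1.75). Both high and low Z-scores at 15 minutes thus occurred among them. These genes were chosen after their values were seen.

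Distances to other origins were large. The nearest other 3-hour origin was at a median distance of 47100 bp (quartiles 10600 and 111300 bp), against 39650 bp in the next step and 10600 bp over all origins. No other origin lay within 100 kb on either side of 231 (28.1%, 25.1 to 31.3%), against 24.5% and 12.2%. Ini-domains, groups of at least 6 origins with gaps of up to 100 kb, held 322 top origins (39.2%, 35.9 to 42.7%), against 41.8% of the next step and 66.7% of all origins. At the edge of an ini-domain lay 63 of the 322 (19.6%), 133 of the 802 of the next step, and 1398 of all 15948 origins in ini-domains (8.77%). Only the first and last origin of a domain are edges, so these shares depend on domain size, which was not taken into account. Groups joined by such gaps, of any size, held a median of 3 origins for top origins, 4 in the next step and 16 over all origins. Of 699 ini-domains, 199 (28.5%) had at least 1 top origin and 61 had 2 or more. Neighbouring top origins were a median of 1465250 bp apart, and 24 of 798 gaps between them were 30 kb or less.

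The ini-domain with most top origins lay on chromosome 16 from 527001 to 1494100 and had 10 among 129 origins. Another on chromosome 16, from 4183601 to 5033900, had 9 among only 35, and 1 from 30354701 to 31215600 had 7 among 37. On chromosome X, 7 of 38 origins from 153334001 to 154097700 were top origins. Among the most isolated were the site on chromosome 9 without SNS-seq peaks and an origin of 300 bp on chromosome X next to the start of TMEM47 (efficiency 0.989), which was called at 15 minutes in an interval of 500 bp.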

How the data were processed

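Reads of ini-seq 2 were aligned to hg38 with Bowtie2 by the authors. Duplicates were removed, HL and LL reads were counted per 100 bp window with scaling to library size, windows reaching a log2 ratio of 2 were merged across gaps up to 500 bp, and intervals of efficiency 0.8 or more were kept. The deposited 3-hour value is this efficiency, a fraction, although its column is headed Z-score, and its list pools 2 biological replicates. For the 15-minute reaction the authors deposited a score per origin, the Z-score within that list, and the number of replicates behind it is not given in the sources used here. SNS-seq peaks were called by the authors with MACS2 against genomic DNA, and the lists hold positions only. The lists give no read counts, so the depth at each origin is unknown. The paper states the total mapped reads of both reactions, which were fewer at 15 minutes than at 3 hours in both HL and LL.

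From the files, intervals were compared by position (overlap of at least 1 bp; 5 kb for SNS-seq) with the hg38 sequence, GENCODE 44 and RefSeq promoters, and the searches were tested on simulated data. Named origins were the longest, those with the highest Z-score, the lowest GC content, the most G4 motifs, without a 15-minute call or SNS-seq peak, farthest from a gene start or another origin, at the limit, and at starts of listed genes. The members and lists were chosen with earlier results of these data known. Alternatives varied the limit, distances, windows, lengths and chromosomes. Calculations used pandas 2.3.3, pysam 0.24.0, scipy 1.17.1 and numpy 2.4.6 under Python 3.11.15, and figures matplotlib 3.10.9. Some items are not reported here.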

Additional observations from a re-analysis of the deposited data

How the results depend on the processing

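Of 110 alternative values, 82 stayed within the 95% interval of the value reported (for skew and flank GC content, within 1 SD between chromosomes), and 28 did not. Limits of 0.95, 0.96, 0.98 and 0.99 gave median 15-minute Z-scores of 0.611, 0.706, 0.8997 and 1.065, and median GC contents of 73.4, 74.2, 76.3 and 77.3%. The share with a coding gene start was 57.4, 44.3 and 29.5% at limits of 0.95, 0.98 and 0.99, 70.3% with a start allowed within 1 kb, 58.1% with all annotated genes and 76.2% with the starts of all transcripts of coding genes, the last chosen after seeing the data. Origins of 500 bp or more gave 98.7% called at 15 minutes, 100% near an SNS-seq peak of either and of both fractions, 88.4% with a G4 motif and 58.3% with a coding gene start. A limit of 0.99 gave 100% near an SNS-seq peak. GC content of the central 100 or 300 bp had a median of 77.0%. G4 motifs were found in 94.9% with loops of up to 12 nt and in 57.5% of the central 300 bp. Leaving out chromosomes 8, 10, 16 and X, an alternative chosen after seeing the data, gave a median length ratio of 1.09. No paired analysis was possible because each condition is 1 list with no replicate numbers shared between groups. Without read counts, values near an efficiency of 1 in intervals of 300 to 400 bp cannot be given an error.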

Other observations

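In the 7 windows of 20 Mb where over 30% of 3-hour origins had an efficiency of 0.97 or more, 54 of 271 origins called at 15 minutes (19.9%, exact 95% interval 15.3 to 25.2%) had no 3-hour origin over them, against 444 of 9910 elsewhere (4.48%, 4.08 to 4.91%). Their median 15-minute Z-score was 0.74, against 0.02 for those elsewhere, so that strong 15-minute origins were among them. The windows were picked for their share of efficient origins, and why a 15-minute origin had no 3-hour call was not tested.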
